A study of Caenorhabditis elegans with 12 samples.

Results

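The genes of the vacuolar proton pump (V-ATPase) and of the cathepsin-type proteases that work in the acid compartments it makes were examined in *C. elegans* larvae with reduced expression of *nuo-5*, a subunit of mitochondrial complex I. Members were taken by symbol: every gene named *vha-*, *asp-*, *cpr-*, *cpl-*, *cpz-* or *ctsa-* with a number, plus *unc-32*. The rule found 54 genes among the 25478 that could be measured by name, 19 of the V-ATPase and 35 proteases, each on 1 probe set. Of the 57 symbols of this kind in the reference gene table, *vha-2*, *vha-3* and *asp-2* had no probe set with a single symbol.

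Whole N2 (wild-type) L3 larvae, grown at 20 °C, gave the RNA for Affymetrix worm arrays, on which sets of short probes report each transcript as a log2 brightness, so that a difference of 1 is a doubling. Control larvae were fed bacteria with the empty vector pL4440, mild *nuo-5* RNAi was reached in the parental generation, and strong *nuo-5* RNAi in the filial generation. There were 4 biological replicates in each of the 3 groups, and they carry the numbers I, III, IV and V. The labels name plates with lutein or with 0.25% DMSO and give no lutein for these samples. All 3 groups were therefore taken as grown with 0.25% DMSO. Strength of RNAi and generation change together and cannot be told apart, and no label gives the generation of the control larvae.

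The V-ATPase is a rotary machine with a cytosolic V1 sector that splits ATP and a membrane V0 sector that carries protons, and it acidifies lysosomes, endosomes and, on some epithelia, the space outside the cell. Most subunits come from a single gene in the worm, whereas the a subunit of V0 has several versions that place the pump in different tissues. Aspartyl proteases (*asp*, cathepsin D-like) and cysteine proteases (*cpr*, cathepsin B-like; *cpl*, cathepsin L-like; *cpz*, cathepsin Z-like) digest protein at acid pH. The *ctsa* genes encode cathepsin A-like serine carboxypeptidases. In the worm much of this digestion takes place in the intestine, both in its lysosomes and in its lumen.

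The RNAi target *nuo-5* lay at 8.29 to 8.56 in controls, 7.15 to 7.66 under mild RNAi and 6.89 to 7.22 under strong RNAi. Correlations between arrays were 0.975 to 0.985 for control pairs, 0.978 to 0.983 for mild pairs and 0.960 to 0.981 for strong pairs. Strong replicate III stood apart from the other strong arrays in a list of 7 genes of adults (yolk proteins and adult collagens), whose summed level was 6.37 there against 10.43 to 12.43 on the other strong arrays and 5.79 to 6.27 on the control arrays. A list of 11 oocyte and eggshell genes behaved likewise, with 9.02 on strong replicate III, 11.85 to 12.03 on the other strong arrays and 9.35 to 9.86 on the control arrays. The strong group, labelled L3, thus held 3 arrays with adult and oocyte transcripts above the control range and 1 without the oocyte rise. Of 10 intestinal markers 9 were measured, and their summed level was 12.11 to 12.74 in control, 12.17 to 12.82 with mild and 12.79 to 12.90 with strong RNAi.

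Between strong RNAi and control 9 of the 54 genes passed, 8 of them among the 35 proteases. In the V-ATPase 1 of 19 genes rose against control and 0 fell. Of the 35 proteases 6 rose and 2 fell. Over all probe sets 8.04% were called higher and 5.62% lower in this comparison at an adjusted p under 0.05. Against this background 1 of 19 pump genes is no more than the array as a whole gave. Of the 15403 genes with a control mean at or above a dim level of 3.01, 1946 were called higher and 1382 lower. Whether the protease calls exceed these shares was not tested. The median log2 fold change was -0.0008 for the V-ATPase, 0.09 for the proteases and -0.05 for all genes. Mild RNAi changed 0 of the 54 genes by limma, with 0.0136% of all probe sets called higher and 0.00341% lower, and 1 of the 54 (*asp-8*) was under an unadjusted p of 0.05.

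**Figure D1:**
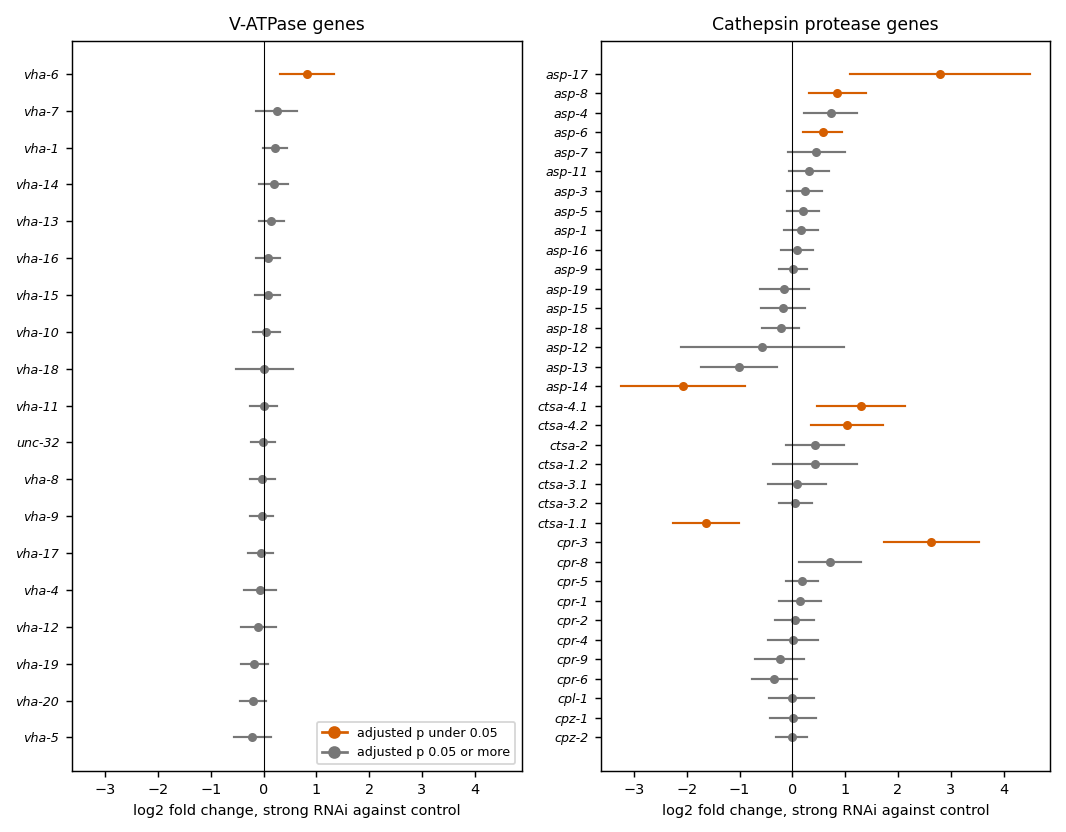
Log2 fold change between strong *nuo-5* RNAi and control (horizontal axis) for the 19 V-ATPase genes (left) and the 35 protease genes (right, grouped by subfamily and sorted within it). Points are estimates, lines are 95% intervals from limma, and orange marks an adjusted p under 0.05; the pump genes other than *vha-6* lie between -0.21 and 0.25, and the proteases reach from -2.07 to 2.79.

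*vha-6*, the a subunit of the V0 sector that in the worm sits on the apical membrane of the intestine, was the V-ATPase gene that rose. Its log2 values were 10.59, 10.65, 9.60 and 10.23 on control replicates I, III, IV and V, 10.65, 10.66, 10.04 and 10.14 on the mild arrays, and 11.33, 11.28, 10.83 and 10.91 on the strong arrays. All 4 strong arrays lay above all control and mild arrays. The difference between strong RNAi and control was 0.82 ± 0.24 (SE), a 1.77-fold rise with an adjusted p of 0.0380. Against mild RNAi the difference was 0.72, with an adjusted p of 0.0783. The call against control was lost without control replicate IV or V or any 1 of the strong arrays, with log2 fold changes of 0.60 to 0.91 and adjusted p values of 0.0522 to 0.0859. Within replicate numbers I, III, IV and V the strong-minus-control differences were 0.74, 0.63, 1.24 and 0.68. The reported fit did not pair arrays by number, and with the number as a block the adjusted limma p against control was 0.00348. Control replicate IV, the lowest array for *vha-6*, was also the lowest control array for the intestinal list (12.11), and the part of intestinal content in this result was not tested. In RNA of whole larvae, fewer cells of a type and less RNA per cell cannot be told apart.

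The other versions of the a subunit did not pass the test. *unc-32*, the version known from neurons, was at 7.44 to 7.53 in control, 7.24 to 7.47 with mild and 7.35 to 7.66 with strong RNAi, a difference of -0.01 between strong RNAi and control with a 95% interval of -0.24 to 0.22. *vha-5*, which acts in the excretory canal and the hypodermis, was at 9.66 to 9.83 in control and 9.31 to 9.95 in strong RNAi, a difference of -0.21 (95% interval -0.56 to 0.14). *vha-7*, found in hypodermis and uterus, was at 6.08 to 6.76 in control and 6.43 to 6.90 in strong RNAi, a difference of 0.25 (95% interval -0.14 to 0.64). The intervals of *unc-32* and *vha-5* end below the lower bound of *vha-6* (0.31), while that of *vha-7* reaches past it; the differences between these genes were not tested.

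Among the remaining V0 genes, none of those that form the proton-carrying ring passed the test. *vha-1*, a c subunit, was at 10.94 to 11.20 in control, 10.99 to 11.21 with mild and 11.27 to 11.38 with strong RNAi. Its strong arrays all lay above the control arrays, but the difference of 0.21 ± 0.10 (SE) did not pass (adjusted p = 0.209). *vha-2* and *vha-3*, the other c subunit genes, share 2 probe sets that carry both symbols. Their strong-minus-control differences were 0.11 (adjusted p = 0.508) and -0.27 (adjusted p = 0.280), so their signs were opposite and neither passed. Between strong and mild RNAi the differences were 0.11 (adjusted p = 0.527) and -0.46 (95% interval -0.78 to -0.13, adjusted p = 0.0782). *vha-1* and *vha-2* are neighbours on chromosome III, and *vha-11* and *vha-3* on chromosome IV, with 0 genes between them.

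*vha-4*, the c'' subunit of the ring, was at 8.93 to 9.23 in control and 8.82 to 9.33 in strong RNAi, and its difference was -0.06. *vha-16*, the d subunit that joins the ring to the central stalk, was at 10.98 to 11.13 and 11.07 to 11.29, with a difference of 0.08. *vha-17*, the small e subunit, was at 9.32 to 9.48 and 9.22 to 9.51, with a difference of -0.05. In each of these genes the control and strong arrays overlapped.

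The V1 sector showed no called gene. Its catalytic pair, *vha-13* (subunit A) and *vha-12* (subunit B), differed between strong RNAi and control by 0.15 (95% interval -0.09 to 0.39) and -0.10 (-0.43 to 0.23). The stalk subunits *vha-14* (D), *vha-8* (E), *vha-9* (F) and *vha-10* (G) differed by 0.19, -0.02, -0.04 and 0.05. *vha-14* was at 9.17 to 9.55 in control, 9.05 to 9.52 with mild and 9.53 to 9.69 with strong RNAi, so that its strong arrays lay above the mild ones and overlapped the control ones. *vha-11*, the C subunit that helps the 2 sectors hold together, differed by -0.00 with an interval of -0.25 to 0.25.

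The H subunit, which regulates the coupled pump, has 2 genes, and they spread differently. *vha-15* was at 9.27 to 9.35 in control and 9.17 to 9.57 in strong RNAi. *vha-18* was at 5.19, 4.70, 4.71 and 4.81 on control replicates I, III, IV and V and at 5.38, 4.00, 4.93 and 5.15 on the strong arrays. Strong replicate III was thus the lowest array for *vha-18* and the other 3 strong arrays lay at or above 4.93, and the group difference was 0.01 with an interval of -0.52 to 0.55. The accessory subunits *vha-19* (Ac45-like) and *vha-20* (the prorenin receptor homologue) differed by -0.17 and -0.19, with adjusted p values of 0.399 and 0.291.

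Taking the 18 V-ATPase genes other than *vha-6*, the differences between strong RNAi and control ran from -0.21 to 0.25. In 15 of 18 the 95% interval lay within 0.5 on the log2 scale, and in 18 of 18 it lay within 1. A change of the pump's transcripts beyond a doubling lay outside these intervals, whereas the intervals of *vha-5*, *vha-7* and *vha-18* reached past 0.5. The number of V-ATPase genes above their control mean varied within groups: 17, 14, 3 and 3 of 19 on control replicates I, III, IV and V, 15, 9, 10 and 4 on the mild arrays, and 11, 17, 9 and 8 on the strong arrays. Between mild RNAi and control the intervals of 17 of these 18 genes lay within 0.5.

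**Figure D2:**
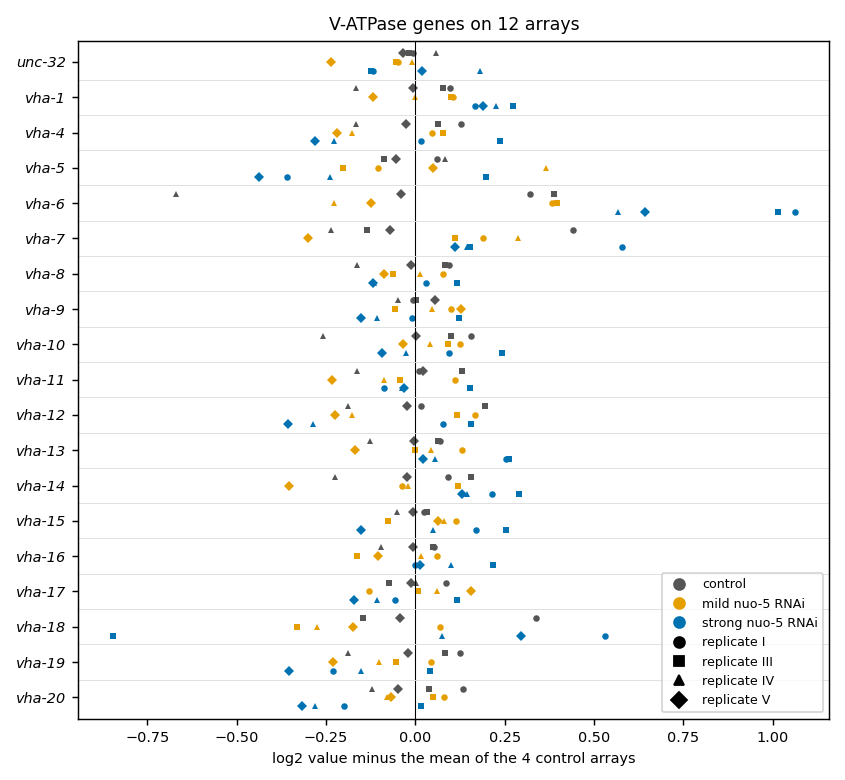
Log2 value of each V-ATPase gene minus its mean over the 4 control arrays (horizontal axis), with 1 row per gene; colour gives the group and symbol the replicate number. Strong arrays of *vha-6* lie 0.57 to 1.06 above the control mean, and strong replicate III of *vha-18* lies at -0.85.

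The aspartyl proteases held the widest changes in both directions. Of 17 genes 3 rose (*asp-6*, *asp-8* and *asp-17*), 1 fell (*asp-14*) and 13 did not pass between strong RNAi and control. Beside them stand 8.04% of all probe sets higher and 5.62% lower. *asp-17* was at 6.70, 6.42, 5.34 and 5.46 on control replicates I, III, IV and V, 5.72, 5.46, 3.99 and 5.20 on the mild arrays, and 8.84, 5.93, 10.48 and 9.84 on the strong arrays. Replicates I, IV and V of strong RNAi lay above every control array, while strong replicate III lay inside the control range. The difference was 2.79 ± 0.79 (SE) against control, or 6.92-fold, with an adjusted p of 0.0342, and 3.68 against mild RNAi with an adjusted p of 0.0128. Without strong replicate III the difference from control was 3.74 (adjusted p = 0.000471). The call against control was lost without control replicate III, IV or V or strong replicate I, IV or V, at 2.22 to 2.94 with adjusted p values of 0.0585 to 0.102. Against mild RNAi leaving out any 1 array kept the call. The same 3 strong arrays carried the adult and oocyte transcripts given above, and the part of those transcripts in the result was not tested.

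*asp-14* fell. It was at 8.49, 8.56, 8.62 and 8.51 on the control arrays, 8.77, 7.38, 8.75 and 9.33 on the mild arrays, and 7.21, 5.18, 7.91 and 5.60 on the strong arrays. The control arrays lay close together (SD 0.06), the strong arrays all lay below them with a wide spread (SD 1.30), and the mild arrays lay on both sides of control. *asp-14* fell by 2.07 ± 0.54 (SE) on the log2 scale against control (adjusted p = 0.0241) and by 2.08 against mild RNAi (adjusted p = 0.0295). The part of adult and oocyte transcripts in this result was not tested. The call against control was lost without any 1 of the control arrays or strong replicate V, at -2.09 to -1.78 with adjusted p values of 0.0506 to 0.0755. Against mild RNAi it was lost without mild replicate I, IV or V or strong replicate V, at -2.02 to -1.79 with adjusted p values of 0.0655 to 0.0911.

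*asp-6* rose by a smaller step that all 4 strong arrays shared. It was at 12.16, 12.20, 11.54 and 11.99 in control, 12.13, 12.13, 11.61 and 11.93 in mild RNAi, and 12.49, 12.36, 12.63 and 12.71 in strong RNAi, with no overlap between strong RNAi and the other groups. The difference was 0.58 ± 0.17 (SE) against control, or 1.49-fold (adjusted p = 0.0405), and 0.60 against mild RNAi (adjusted p = 0.0427). The call against control was lost without control replicate IV or V, mild replicate V or strong replicate I, IV or V (0.43 to 0.59, adjusted p 0.0530 to 0.111). Against mild RNAi it was lost without control replicate I or V, any 1 of the mild arrays or strong replicate I, IV or V (0.48 to 0.66, adjusted p 0.0522 to 0.119).

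*asp-8* differed from the other called genes in its order of groups. It was at 8.68, 7.89, 9.06 and 8.59 in control, 9.60, 9.46, 9.74 and 9.28 in mild RNAi, and 9.79, 9.60, 9.40 and 8.81 in strong RNAi. All mild arrays lay above all control arrays, and strong replicate V lay inside the control range. The rise against control was 0.85 ± 0.25 (SE) in strong RNAi, or 1.80-fold (adjusted p = 0.0409). In mild RNAi the difference was 0.97, with an unadjusted limma p of 0.00202 and an adjusted p of 1. Within replicate numbers I, III, IV and V the mild-minus-control differences were 0.93, 1.57, 0.69 and 0.69. The reported fit did not pair arrays by number, and with the number as a block the adjusted limma p was 0.873. Strong and mild RNAi differed by -0.12, with a 95% interval of -0.66 to 0.42. The call was lost without control replicate I, III or V, mild replicate I, III or IV or strong replicate I, III or IV (0.63 to 0.89, adjusted p 0.0502 to 0.102).

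The aspartyl proteases with studied roles were among those that did not pass. *asp-4*, a cathepsin D-like protease that takes part in necrotic death of neurons in the worm, was at 7.93, 8.0, 7.40 and 7.35 in control and 8.93, 8.51, 8.16 and 7.95 in strong RNAi. Only strong replicate V overlapped the control range, and the difference was 0.72 with an adjusted p of 0.0560. *asp-3*, which acts in the same process, differed by 0.23 (95% interval -0.09 to 0.56), and *asp-1*, an intestinal aspartyl protease, by 0.16 (-0.17 to 0.49). *asp-13* was at 9.63 to 11.28 in control and 8.78 to 9.73 in strong RNAi, a difference of -1.01 with an adjusted p of 0.0624.

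Of the 35 proteases 22 lie on chromosome V, among them 13 of the 17 aspartyl ones. Several are next to each other with 0 genes between them. *asp-17* adjoins *asp-16* and *asp-15*, and these differed from control by 0.09 and -0.18 in strong RNAi, with *asp-16* below the dim level of 3.01 in every group. *asp-6* lies in a row with *asp-12*, *asp-5* and *asp-11*. *asp-5* differed by 0.20 (95% interval -0.10 to 0.50), and *asp-11*, annotated as a pseudogene, by 0.31. *asp-12* was at 7.66 on control replicate III and at 3.85 to 5.18 on the other control arrays, and its interval of -2.11 to 0.97 allows no statement. *asp-7*, the neighbour of *asp-8*, differed by 0.48 in mild and 0.45 in strong RNAi without passing. The differences between neighbours were not tested. *asp-9*, *asp-18* and *asp-19* differed by 0.01, -0.22 and -0.15.

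Among the cysteine proteases 1 gene rose and 0 fell between strong RNAi and control, beside 8.04% and 5.62% of all probe sets. *cpr-3*, a cathepsin B-like protease, was at 8.26, 8.13, 7.19 and 7.81 on the control arrays, 8.43, 7.77, 7.25 and 7.77 on the mild arrays, and 10.49, 9.11, 11.19 and 11.12 on the strong arrays. All 4 strong arrays lay above all others, and strong replicate III was the lowest of them. *cpr-3* rose by 2.63 ± 0.42 (SE) on the log2 scale, or 6.20-fold, against control (adjusted p = 0.00209) and by 2.67 against mild RNAi (adjusted p = 0.00339). Leaving out any 1 array kept both calls, and without strong replicate III the rise from control was 3.09. As for *asp-17*, its 3 highest arrays were those with adult and oocyte transcripts above the control range, and the part of those transcripts in the result was not tested.

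The other 7 *cpr* genes, *cpl-1*, *cpz-1* and *cpz-2* did not pass. *cpr-8* was at 8.15, 8.21, 7.24 and 7.93 in control and 8.82, 9.06, 8.29 and 8.26 in strong RNAi, so that the groups did not overlap, and its difference was 0.72 (adjusted p = 0.102). Its neighbour *cpr-5* was at 11.99 to 12.44 in control, 12.07 to 12.48 with mild and 12.22 to 12.56 with strong RNAi, a difference of 0.18 (95% interval -0.12 to 0.48). *cpl-1*, the cathepsin L needed for yolk processing in embryos of the worm, was at 10.53 to 11.27 in control and 10.58 to 11.20 in strong RNAi, a difference of -0.02 (-0.45 to 0.42). *cpz-1* and *cpz-2*, of which the former is known for its part in moulting of the worm, differed by 0.01 and -0.02. The *cpr* genes not named here with values differed by -0.35 to 0.14.

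Of the 7 cathepsin A-like carboxypeptidase genes 2 rose and 1 fell between strong RNAi and control. Over all probe sets 8.04% rose and 5.62% fell. The strong-minus-control difference was positive in 6 of the 7 genes. *ctsa-1.1* was at 10.31, 10.16, 10.34 and 10.37 in control, 10.17, 10.17, 10.35 and 10.04 in mild RNAi, and 9.09, 9.35, 8.59 and 7.58 in strong RNAi. Control and mild arrays lay close together (SD 0.09 and 0.12), and the strong arrays all lay below them (SD 0.78). *ctsa-1.1* fell by 1.64 ± 0.29 (SE) against control (adjusted p = 0.00354) and by 1.53 against mild RNAi (adjusted p = 0.00793), and leaving out any 1 array kept both calls. *ctsa-1.2*, the gene of the nearest name, was at 8.91 to 10.19 in control and 9.37 to 10.38 in strong RNAi, a difference of 0.42 (95% interval -0.37 to 1.22).

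*ctsa-4.1* was at 8.67, 8.65, 7.80 and 7.92 in control, 9.05, 8.99, 7.68 and 7.55 in mild RNAi, and 9.99, 9.99, 9.34 and 8.88 in strong RNAi. *ctsa-4.2* was at 9.20, 9.34, 8.49 and 8.72 in control, 9.46, 9.63, 8.48 and 8.44 in mild RNAi, and 10.25, 10.45, 9.61 and 9.55 in strong RNAi. In both genes replicates I and III were high and IV and V low in every group, and the strong arrays all lay above the control arrays. The rises against control were 1.29 ± 0.38 (SE), or 2.45-fold (adjusted p = 0.0430), and 1.03 ± 0.31 (SE), or 2.04-fold (adjusted p = 0.0474). Against mild RNAi the differences were 1.23 and 0.97, with adjusted p values of 0.0629 and 0.0727. The *ctsa-4.1* call was lost without any 1 of the control arrays or strong replicate I, III or IV (1.14 to 1.43, adjusted p 0.0522 to 0.110). That of *ctsa-4.2* was lost without any 1 of the control or strong arrays or mild replicate I (0.87 to 1.17, adjusted p 0.0506 to 0.123). Within replicate numbers I, III, IV and V, *ctsa-4.1* rose from control to strong RNAi by 1.32, 1.34, 1.54 and 0.96. *ctsa-4.2* rose by 1.05, 1.12, 1.12 and 0.84. The reported fit did not pair arrays by number. With the number as a block the adjusted limma p against control was 0.00123 for *ctsa-4.1* and 0.00122 for *ctsa-4.2*. *ctsa-2* differed by 0.43 (-0.12 to 0.99), *ctsa-3.1* by 0.09 and *ctsa-3.2* by 0.06, and none of these passed.

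**Figure D3:**
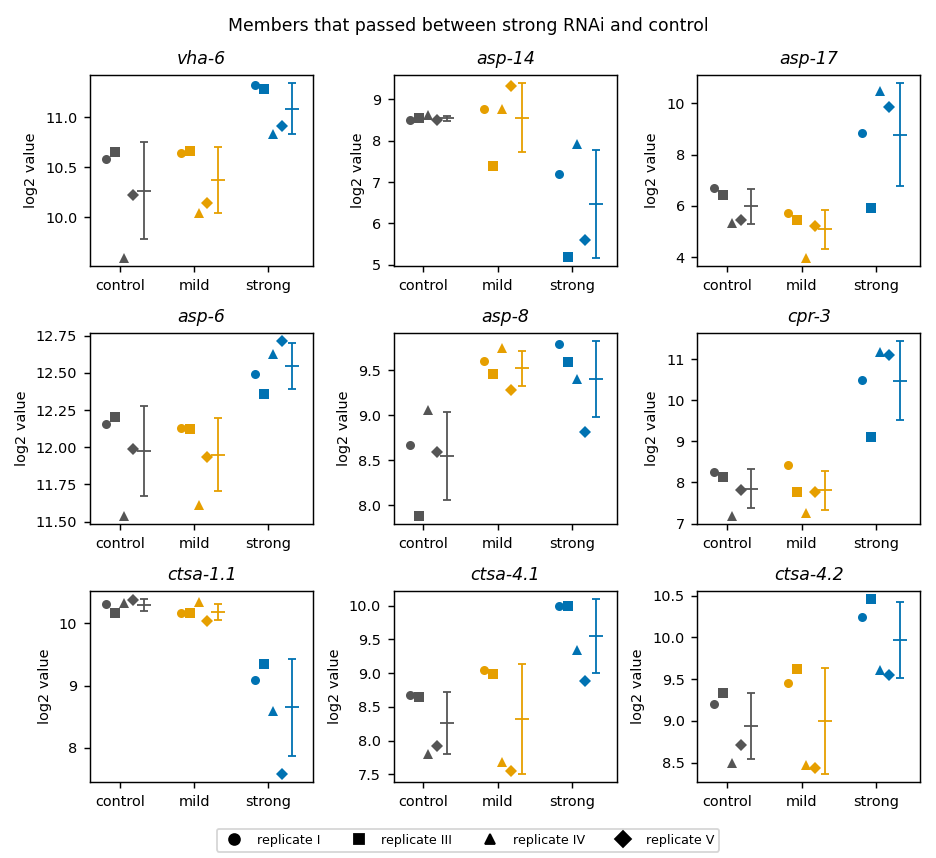
Log2 values of the 9 genes that passed between strong *nuo-5* RNAi and control, by group (horizontal axis), with the symbol giving the replicate number and the bar the group mean ± SD of 4 arrays. Vertical axes differ between panels; strong arrays of *cpr-3* (9.11 to 11.19) and *ctsa-1.1* (7.58 to 9.35) lie apart from both other groups, and strong replicate III of *asp-17* (5.93) lies inside the control range.

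By arrays that did not overlap, strong RNAi lay above control in 2 of 19 V-ATPase genes (*vha-1* and *vha-6*) and in 5 of 35 proteases (*asp-6*, *ctsa-4.1*, *ctsa-4.2*, *cpr-3* and *cpr-8*), against 9.39% of all probe sets. It lay below control in 0 and 2 genes (*asp-14* and *ctsa-1.1*), against 8.51%. For mild RNAi against control, *asp-8* was the only member without overlap, and it was higher, against 1.38% of all probe sets that were higher and 1.08% lower. Between strong and mild RNAi, where 5.82% of all probe sets were called higher and 4.34% lower, 0 V-ATPase genes passed (1, *vha-6*, at an unadjusted limma p under 0.05), 3 proteases rose (*asp-6*, *asp-17* and *cpr-3*) and 2 fell (*asp-14* and *ctsa-1.1*). All comparisons with control use the same 4 control arrays, and both comparisons of strong RNAi use the same 4 strong arrays.

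Against control, calls of the proteases other than *cpr-3* and *ctsa-1.1* lay near the threshold. Each was lost on leaving out any 1 of 5 to 9 arrays, with adjusted p values of 0.0502 to 0.123 and an unchanged sign. Against mild RNAi the calls of *asp-6* and *asp-14* were lost on leaving out 1 of several arrays, and that of *asp-17* was not. The 6 higher calls against control became 3 without control replicate I, 2 without III or IV and 1 without V, and they became 1, 3 and 1 when strong replicate I, III or IV was left out. The 2 lower calls became 1 without control replicate I, III or V or strong replicate V. With each array centred on its median, 0 V-ATPase genes and 2 proteases were called higher. The strong-minus-control differences of the proteases were less precise than those of the pump, with a median SE of 0.21 against 0.11, and the 95% interval lay within 0.5 in 11 of 35 and within 1 in 23 of 35. On at least 4 arrays 30 of 35 proteases and 19 of 19 V-ATPase genes exceeded the dim level of 3.01, and *asp-9*, *asp-11*, *asp-16*, *asp-19* and *cpr-2* did not.

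Other genes of the lysosome were set beside the members. Of 25 measured hydrolases that are not proteases, 3 rose and 1 fell between strong RNAi and control, beside 8.04% of all probe sets higher and 5.62% lower. *nuc-1*, the lysosomal DNase II that digests DNA of dead cells and of food, fell by 1.47 ± 0.27 (SE; adjusted p = 0.00474). The ceramidase genes *asah-1* and *asah-2* rose by 1.09 and 1.08, with adjusted p values of 0.0209 and 0.0363. The *asah-1* call was lost without strong replicate IV (0.88, adjusted p = 0.0622). The *asah-2* call was lost without control replicate III, IV or V or strong replicate I, IV or V (0.79 to 1.17, adjusted p 0.0539 to 0.101).

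Of 25 genes of the lysosomal membrane and its transporters 4 rose and 3 fell, beside the same 8.04% and 5.62% of all probe sets. *glo-3*, needed for the lysosome-like gut granules of the worm, rose by 0.87 (adjusted p = 0.0107), and *ncr-1*, the Niemann-Pick C1 homologue that moves cholesterol, by 0.84 (adjusted p = 0.00719). *cln-3.1*, a homologue of the Batten disease gene, fell by 1.10 (adjusted p = 0.0205), a call lost without control replicate V or strong replicate IV or V (-1.10 to -1.03, adjusted p 0.0516 to 0.0600). In the list of 19 genes for traffic from endosome to lysosome 1 rose and 0 fell, beside 8.04% and 5.62%. It was the small GTPase *rab-7*, which rose by 0.53 (adjusted p = 0.0394). Its call was lost without control replicate I, III or V, mild replicate I or V or strong replicate IV or V (0.43 to 0.53, adjusted p 0.0508 to 0.117). Of 3 further genes linked with the V-ATPase but outside the rule 0 passed.

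Of 15 genes of lysosomal signalling 4 rose and 2 fell, beside 8.04% and 5.62% of all probe sets. *hlh-30*, the TFEB homologue known in the worm as a regulator of lysosomal and autophagy genes, was at 8.58, 8.48, 8.29 and 8.28 in control, 8.65, 8.49, 8.73 and 8.44 in mild RNAi, and 9.01, 9.04, 9.40 and 9.51 in strong RNAi. Its strong arrays lay above all others, including strong replicate III, and it rose by 0.83 ± 0.14 (SE; adjusted p = 0.00297). *mxl-2*, a partner of the Mondo-like factor, rose by 0.68 and *lmtr-5*, of the Ragulator complex, by 0.66 (adjusted p = 0.0204 and 0.0170). The *mxl-2* call was lost without control replicate I, III or V or strong replicate IV (0.61 to 0.65, adjusted p 0.0558 to 0.0617) and the *lmtr-5* call without control or strong replicate V (0.59 to 0.62, adjusted p 0.0517 to 0.0546). Of the cystatins that inhibit cysteine proteases, *cpi-2* was at 8.08 to 8.26 in control and 8.91, 8.33, 9.40 and 9.54 on strong replicates I, III, IV and V. It rose by 0.87 (adjusted p = 0.0184), a call lost without strong replicate IV or V (0.71 to 0.76, adjusted p 0.0535 to 0.0599), and *cpi-1* differed by -0.18.

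Cell type markers were counted in the same comparison, in which 8.04% of all probe sets rose and 5.62% fell. Between strong RNAi and control 2 of 9 intestinal markers rose, namely *elt-2*, the GATA factor of the gut, by 1.57 ± 0.25 (SE; adjusted p = 0.00215) and *eps-8* by 0.58 (adjusted p = 0.0442), and 0 fell. Among hypodermal markers 2 of 8 fell, and the summed level was 12.88 to 13.46 in control and 11.51 to 12.81 in strong RNAi. Of body muscle markers 4 of 8 fell, of germ line markers 4 of 8 fell, and of neuronal markers 4 of 10 rose. Excretory cell markers gave 2 rises and 1 fall among 6, and coelomocyte markers 0 calls among 3. The part of tissue content in the changes of *vha-6* and of the proteases was not tested.

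**Figure D4:**
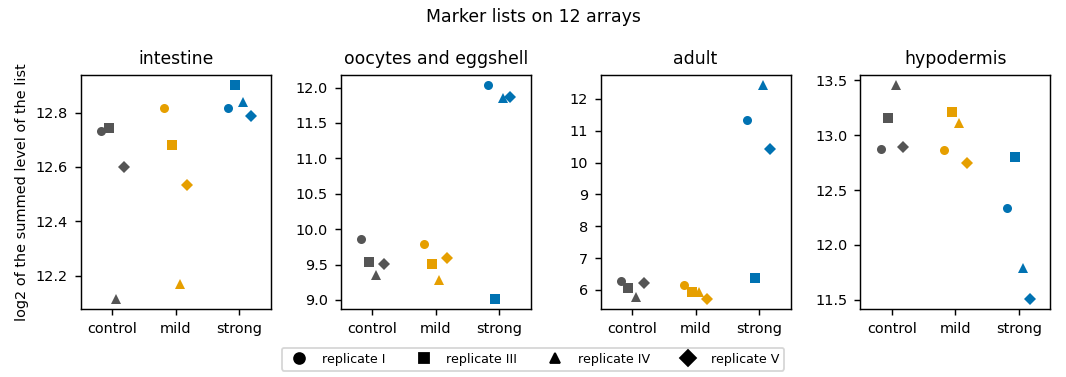
Log2 of the summed level (vertical axis, linear levels added over the genes of a list) of 4 marker lists on the 12 arrays, by group and with the symbol giving the replicate number. Strong arrays of the intestinal list lie at 12.79 to 12.90 with control replicate IV at 12.11, and strong replicate III lies just above the control arrays in the adult list (6.37 against 5.79 to 6.27) and below them in the oocyte list (9.02).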

How the data were processed

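The authors processed the scans by RMA (background correction, quantile normalization between arrays and 1 summary per probe set), and the deposited log2 values of 29317 probe sets were used without further change. The methods and the labels name different versions of the array, and the authors left out 1 of 5 replicates collected. Symbols came from the platform annotation (25546 probe sets with 1 symbol, 646 with several, 3125 with none), and the reference table WBcel235 gave only chromosomes and gene neighbours. Brightness of different probe sets was not compared.

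Group means were compared in R 4.3.3 with limma 3.58.1 (lmFit, eBayes) in 1 fit over 12 arrays, adjusting by Benjamini and Hochberg across every probe set and calling genes at an adjusted p under 0.05. Intervals are 95% intervals of the moderated statistic. The fit was tested on simulated data. Array number limits the precision. Every V-ATPase gene, every protease past the threshold, the brightest gene of each subfamily and up to 3 called genes per other list were to be named, and the other proteases given by name and *cpi-1* were added after their values were seen. Members and lists were chosen with earlier results of these data known.

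Deviations of same-numbered mild and control arrays from their group means correlated at 0.344, 0.247, 0.274 and 0.200, so the numbers paired the arrays there. The reported fit held no replicate block in any comparison and left this pairing out. The block was run as an alternative. Alternatives were the number as a block, centring on array medians, a repeated quantile normalization, a fit of only 8 arrays, a filter on dim probe sets (above the 40th percentile, 3.01, on at least 4 arrays), only 1-symbol probe sets, averaging all probe sets per gene, an intensity trend, array weights, stricter thresholds and leaving out each array. Figures were drawn with Python 3.11.15, pandas 2.3.3 and matplotlib 3.10.9.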

Additional observations from a re-analysis of the deposited data

Results flagged for a closer look

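In 162 groups of 4 arrays (54 genes in 3 groups), 3 held an array whose gap to the nearest other one exceeded Dixon's 95% critical value as a share of the range. Chance gives about 5% of groups. *vha-7* was at 6.90 on strong replicate I against 6.43 to 6.47 on the other strong arrays. The pseudogene *asp-11* was at 3.3 on strong replicate I against 2.54 to 2.64, close to the dim level of 3.01. *cpz-2* was at 9.13 on control replicate IV against 9.57 to 9.64 on the other control arrays. On this array *vha-6*, *asp-6*, *asp-17*, *cpr-3*, *ctsa-4.1* and *ctsa-4.2*, all called higher with strong RNAi, were lowest among the controls. So were *cpr-8* and *ctsa-2*, while *asp-8*, also called higher, was highest there. Many members that did not pass were lowest there too, among them *asp-1*, *asp-3*, *asp-5*, *cpr-5* and most V-ATPase genes. Low values on this array were thus not particular to the genes called higher. On control replicate IV 11 of 35 proteases lay above their control mean, against 24, 27 and 15 on control replicates I, III and V. For the V-ATPase it was 3 of 19 genes, against 17, 14 and 3.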

How the results depend on the processing

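The counts of V-ATPase and of protease genes called higher or lower in the 3 comparisons were recomputed under 23 alternatives, 12 of which leave out 1 array, and 237 of the resulting counts stayed within 1.5 times the reported one while 39 did not. Mild RNAi gave 0 calls of members throughout. The 1 higher V-ATPase call against control (*vha-6*) became 0 with only the 8 arrays compared, with array medians, with array weights, at an adjusted p under 0.01 and when a log2 change of 1 or more was also asked, and 2 (with *vha-1*) with quantile normalization again. Leaving out 1 array gave 0 to 1. Against mild RNAi the 0 higher calls became 2 with quantile normalization again, and 0 to 1 on leaving out 1 array (1 without control replicate IV). The 6 higher protease calls against control became 3 with the 8 arrays, 2 with array medians and 1 at an adjusted p under 0.01, and 1 to 5 without 1 array. The 2 lower ones became 1 at 0.01 and 1 to 2 without 1 array. Against mild RNAi the 3 higher calls became 1 at 0.01 and the 2 lower ones 1 with the 8 arrays, with array weights and at 0.01, and 1 to 2 without 1 array. Stricter thresholds call fewer genes by construction; for the other settings the cause was not tested. *cpr-3* and *ctsa-1.1* kept their calls in both strong comparisons under all 23, and 0 named genes reversed. Centring on array medians moved the median of all probe sets from -0.05 to -0.10 against control, so that changes there are relative to that shift. Counts by subfamily, of other lists and of arrays without overlap were not recomputed.

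For the strong comparisons the replicate numbers did not pair the arrays by the same check (correlations of 6.8e-05 to 0.311 against control and 0.036 to 0.233 against mild RNAi). With the replicate block, the higher calls against mild RNAi were 1 V-ATPase gene (*vha-6*) and 7 proteases, the further ones being *asp-4*, *ctsa-4.1*, *ctsa-4.2* and *cpr-8*. Against control the block gave 8 higher and 3 lower proteases and 1 higher V-ATPase gene. Of 8 arrays 5 correlated best with their own number against control and 4 of 8 against mild RNAi, a hint from the data and not from the design. In the comparison of mild RNAi with control, where the numbers paired the arrays, the block changed no call of a member.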
